A study of Mus musculus with 10 samples.

Results

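This comparison set Ly6C-high monocytes from the spleens of Treg-depleted mice after myocardial infarction (MI) against those of wild-type (WT) mice after sham surgery. It used 7 of the 10 libraries of the series, namely all 4 of Foxp3DTR mice after MI (Foxp3DTR MI 1 to 4) and all 3 of WT mice after sham surgery (WT sham 1 to 3), chosen by genotype and operation. All cells were taken on day 5 after surgery from male mice that were 8 to 10 weeks old. Foxp3DTR mice express the human diphtheria toxin receptor from the Foxp3 promoter, and the toxin therefore removes cells that use this promoter, above all regulatory T-cells (Tregs). By the study's own measure, Treg depletion in Foxp3DTR mice was partial, in the spleen too. For Treg ablation these mice received 500 ng of diphtheria toxin on day 2 and again on day 1 ahead of surgery, then 250 ng on day 2 afterwards, and MI was made by tying off the left anterior descending coronary artery for good. WT sham mice were C57BL/6 animals whose chest was opened with the vessel left untied, and neither the labels nor the methods say whether they received toxin. Genotype, Treg depletion, surgery and possibly toxin thus differed together and cannot be told apart here. Each library was taken as 1 animal, and where libraries of a group came from 1 preparation the p-values measure technical spread only. The 3 libraries of WT mice after MI (WT MI 2 to 4) had no part in the main test and are given as values beside it.

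Ly6C-high monocytes are the inflammatory monocytes of the mouse, made in bone marrow and spleen and recruited into injured tissue. In time they can become Ly6C-low patrolling monocytes, a step that depends on the nuclear receptor Nr4a1. Tregs restrain T-cells and natural killer (NK) cells, which are the main sources of interferon-gamma (IFN-γ). IFN-γ binds its receptor on myeloid cells, activates the kinases Jak1 and Jak2, and induces guanylate-binding proteins (GBPs), immunity-related GTPases (IRGs), chemokines such as Cxcl9 and the antigen-presentation machinery.

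The deposited values rested on 3.13 to 8.04 M reads (M, 1000000) of 50 bases per library, as inferred from coverage and FPKM, and WT sham 2 was the shallowest. That is fewer than the reads sequenced per the study's methods, which also state picogram amounts of input RNA. The sort markers were present in every library. Itgam, which encodes CD11b, had 374, 325 and 361 TPM (transcripts per 1000000 transcripts) in WT sham 1 to 3 and 396, 408, 464 and 377 TPM in Foxp3DTR MI 1 to 4, and Csf1r, which encodes CD115, had 933, 691 and 578 TPM against 530, 550, 657 and 519 TPM. Adgre1, the gene of F4/80, lay between 123 and 166 TPM in all 7. Over all genes tested, WT sham 3 had a median correlation of 0.943 with the other sham libraries and of 0.965 with the Foxp3DTR MI libraries. The same values were 0.950 and 0.950 for WT sham 1 and 0.937 and 0.915 for WT sham 2. WT sham 2 thus correlated least with its own group, and WT sham 3 most with the Foxp3DTR MI libraries. WT sham 3 also had the highest summed level of T cell markers of the 7 libraries. WT sham 2 differed in another way, with Fcgr4, an Fc receptor gene, at 6.48 TPM where the other sham libraries had 81.0 and 80.8 TPM. The adjusted p without WT sham 3 is given beside each named gene whose printed p missed the threshold. This library was picked out from these same values, and leaving out any other single library did not raise the number of genes called. Over the alternative settings, the adjusted p in limma ran from 0.00042 without WT sham 3 to 0.22 for Gbp5. For Cxcl9 it ran from 0.0013, again without WT sham 3, to 0.35.

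Promoters are shown for genes of the IFN-γ lists, because these lists include those with the highest median differences below. Of the 3 IFN-γ-list genes that passed the test, 2 had an entry in the RefSeq promoter table (GRCm38.p6, the same assembly as mm10), Cd38 at chr5:43868559-43868858 on the plus strand and Il18bp at chr7:102018183-102018482 on the minus strand. Gbp5 at chr3:142496684-142496983 on the plus strand and Irgm1 at chr11:48871371-48871670 on the minus strand were added after their values were seen, as GTPase genes that the naming rule includes. Each window runs from 250 bases before to 50 bases after the annotated start. Capitals mark matches, on either strand, to the gamma-activated site, GAS (TTCNNNGAA, which reads the same on both strands) or to the core of the interferon-stimulated response element, ISRE (GAAA, any 2 bases, GAAA).
Cd38: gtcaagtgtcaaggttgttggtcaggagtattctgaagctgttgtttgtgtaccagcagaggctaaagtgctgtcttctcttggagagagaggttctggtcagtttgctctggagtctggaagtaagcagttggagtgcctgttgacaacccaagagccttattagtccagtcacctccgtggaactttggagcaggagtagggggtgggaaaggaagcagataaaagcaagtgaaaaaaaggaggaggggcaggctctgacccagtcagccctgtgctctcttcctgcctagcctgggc
Il18bp: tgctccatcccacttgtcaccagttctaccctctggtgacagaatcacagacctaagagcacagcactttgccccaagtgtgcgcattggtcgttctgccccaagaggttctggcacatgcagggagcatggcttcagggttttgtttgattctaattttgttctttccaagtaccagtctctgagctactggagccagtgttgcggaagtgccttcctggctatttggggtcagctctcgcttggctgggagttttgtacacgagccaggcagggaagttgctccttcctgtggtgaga
Gbp5: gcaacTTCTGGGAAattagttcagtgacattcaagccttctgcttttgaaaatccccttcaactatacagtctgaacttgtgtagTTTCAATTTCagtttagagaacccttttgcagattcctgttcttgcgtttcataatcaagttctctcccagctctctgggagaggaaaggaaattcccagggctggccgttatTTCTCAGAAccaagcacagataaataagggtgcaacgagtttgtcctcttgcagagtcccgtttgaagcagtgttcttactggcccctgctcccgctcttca
Irgm1: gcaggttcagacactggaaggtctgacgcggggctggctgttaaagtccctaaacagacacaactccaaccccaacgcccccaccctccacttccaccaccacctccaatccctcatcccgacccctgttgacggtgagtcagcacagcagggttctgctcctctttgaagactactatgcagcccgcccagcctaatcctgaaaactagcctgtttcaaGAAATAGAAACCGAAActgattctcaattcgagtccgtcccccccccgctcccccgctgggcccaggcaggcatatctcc

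The Gbp5 window held 2 GAS matches, TTCTGGGAA and TTCTCAGAA, and the ISRE core match TTTCAATTTC, read here from the opposite strand. The Irgm1 window held 2 ISRE core matches, GAAATAGAAA and GAAACCGAAA, which overlap. In the Cd38 and Il18bp windows these letters did not occur, which says nothing of sites elsewhere. Of all 32851 promoter windows in the table, 8.30% held a GAS match and 3.44% an ISRE core match. Among promoters of the genes tested the shares were 7.29% and 3.22%. Of the 10 genes that passed the test, 6 had an entry, and 0 of these held a GAS or an ISRE core match. Only 73.1% of the genes tested had an entry, so these shares are not given by gene list.

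Of 12722 genes tested, 10 passed limma's test at an adjusted p under 0.05 (Benjamini-Hochberg), 7 higher in Foxp3DTR MI monocytes (0.055% of genes) and 3 lower (0.0236%). In all 10 the groups did not overlap. The 6 higher genes with an mRNA of their own were Cd38, Wfdc21, Il18bp, Gbp9, Myof and Clic4, and the 3 lower ones were Cx3cr1, Amz1 and Trf.

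Cd38 encodes an ectoenzyme that breaks down NAD and is induced in activated myeloid cells (chromosome 5, 43868827 to 43912374 of mm10). It stood at 6.94, 5.4 and 8.75 TPM in WT sham 1 to 3 and at 51.3, 44.4, 39.1 and 40.0 TPM in Foxp3DTR MI 1 to 4. Every Foxp3DTR MI library was far above every sham library, and the log2 fold change was 2.43 ± 0.15 (SE) with an adjusted p of 0.002 in limma. Errors of log2 fold changes are standard errors throughout. WT MI 2 to 4 had 10.2, 5.28 and 23.7 TPM, so WT MI 2 and 4 lay above all sham libraries and below all Foxp3DTR MI libraries. The call was made in 19 of the 20 alternative settings tried.

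Il18bp encodes a secreted protein that binds and neutralises interleukin-18, itself a driver of IFN-γ release (chromosome 7, 102015077 to 102018155). Its level was 16.4, 21.8 and 25.5 TPM in the sham libraries and 59.4, 57.4, 76.9 and 55.7 TPM in the Foxp3DTR MI libraries, with no overlap and a log2 fold change of 1.46 ± 0.17 (SE) with an adjusted p of 0.033 in limma. Gbp9, a member of the guanylate-binding proteins that act against intracellular microbes (chromosome 5, 105078394 to 105110292), had 53.4, 48.6 and 77.1 TPM against 169, 168, 193 and 121 TPM. Its log2 fold change was 1.38 ± 0.16 (SE) with an adjusted p of 0.033 in limma, and WT sham 3 was the sham library nearest to the Foxp3DTR MI level for both genes.

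Wfdc21 encodes a small secreted WAP-domain protein (chromosome 11, 83746940 to 83752646) and was also on the list of neutrophil markers. It had 12.4, 7.41 and 11.9 TPM in sham and 51.5, 72.3, 79.3 and 103 TPM in Foxp3DTR MI libraries, and its log2 fold change was 2.68 ± 0.28 (SE) with an adjusted p of 0.025 in limma. Among WT MI libraries it ranged widely, at 11.5, 2.83 and 39.4 TPM.

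Myof and Clic4 rose by less but in every library. Myof encodes myoferlin, a membrane protein of the ferlin family that takes part in membrane repair (chromosome 19, 37899036 to 38043577). Sham libraries had 64.3, 45.1 and 66.1 TPM of Myof and Foxp3DTR MI libraries 132, 131, 149 and 114 TPM, a log2 fold change of 1.11 ± 0.13 (SE) with an adjusted p of 0.033 in limma. Clic4 encodes an intracellular chloride channel protein (chromosome 4, 135213970 to 135272760), at 36.1, 29.6 and 45.1 TPM against 84.5, 90.3, 76.2 and 70.9 TPM and a log2 fold change of 1.06 ± 0.12 (SE) with an adjusted p of 0.033 in limma. For Clic4 the WT MI libraries lay near the sham libraries, with 34.5, 37.9 and 30.1 TPM. For Myof they had 63.5, 69.5 and 68.9 TPM as deposited. On scaled values in a fit of all 10 libraries, WT MI minus WT sham was a log2 fold change of 0.40 for Myof (adjusted p of 0.96 in limma) and 0.08 for Clic4.

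The seventh gene called higher was the hairpin entry Mir6919, a 62-base interval on chromosome 11, 50232245 to 50232306, inside the gene Mgat4b. Its coverage amounts to between 0.60 and 1.34 reads of 50 bases in each Foxp3DTR MI library and it is listed at 0 in all 3 sham libraries. About 1 read per library stands behind this call, and such reads cannot be told apart from RNA of Mgat4b, so no fold change is given.

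Cx3cr1, the receptor for the chemokine fractalkine and a defining gene of patrolling monocytes, fell most among the 3 genes called lower (chromosome 9, 120048683 to 120068296). It stood at 327, 250 and 137 TPM in WT sham 1 to 3 and at 50.3, 36.8, 54.2 and 40.5 TPM in Foxp3DTR MI 1 to 4. The lowest sham library, WT sham 3, was still above the highest Foxp3DTR MI library, and the log2 fold change was -2.35 ± 0.29 (SE) with an adjusted p of 0.037 in limma. WT MI 2 to 4 had 266, 324 and 138 TPM, within the range of the sham libraries.

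Trf encodes transferrin, the iron carrier of plasma (chromosome 9, 103208876 to 103230286), and was on the list of red pulp macrophage markers. It had 150, 104 and 151 TPM in sham libraries and 60.2, 40.3, 48.1 and 42.6 TPM in Foxp3DTR MI libraries, with a log2 fold change of -1.54 ± 0.16 (SE) with an adjusted p of 0.025 in limma. Amz1 encodes a metallopeptidase (chromosome 5, 140724127 to 140753312) and had 55.6, 64.6 and 48.6 TPM against 16.3, 20.6, 21.5 and 16.5 TPM, a log2 fold change of -1.60 ± 0.16 (SE) with an adjusted p of 0.024 in limma. WT MI libraries had 34.7, 45.6 and 32.6 TPM of Amz1, between the groups, and 95.9, 119 and 67.6 TPM of Trf, where WT MI 3 lay within the range of the sham libraries and the others between the groups.

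The naming rule fills up the falls with 3 genes that missed the threshold. S1pr5, a sphingosine-1-phosphate receptor used by patrolling monocytes and NK cells to leave the marrow, had 33.2, 25.2 and 19.1 TPM in sham and 8.14, 8.41, 9.25 and 8.82 TPM in Foxp3DTR MI libraries (log2 fold change -1.50 ± 0.20, adjusted p = 0.052, 0.0048 without WT sham 3). Ckb, a creatine kinase subunit, had a log2 fold change of -0.88 ± 0.12 (SE) with an adjusted p of 0.052 in limma, and Galnt9, a glycosyltransferase, one of -0.74 ± 0.10 (SE) with an adjusted p of 0.053 in limma. Without WT sham 3 both passed, at adjusted p of 0.017 and 0.012 in limma. The rule admits only genes with separated groups, so the lack of overlap in these 3 follows from the choice.

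**Figure D1:**
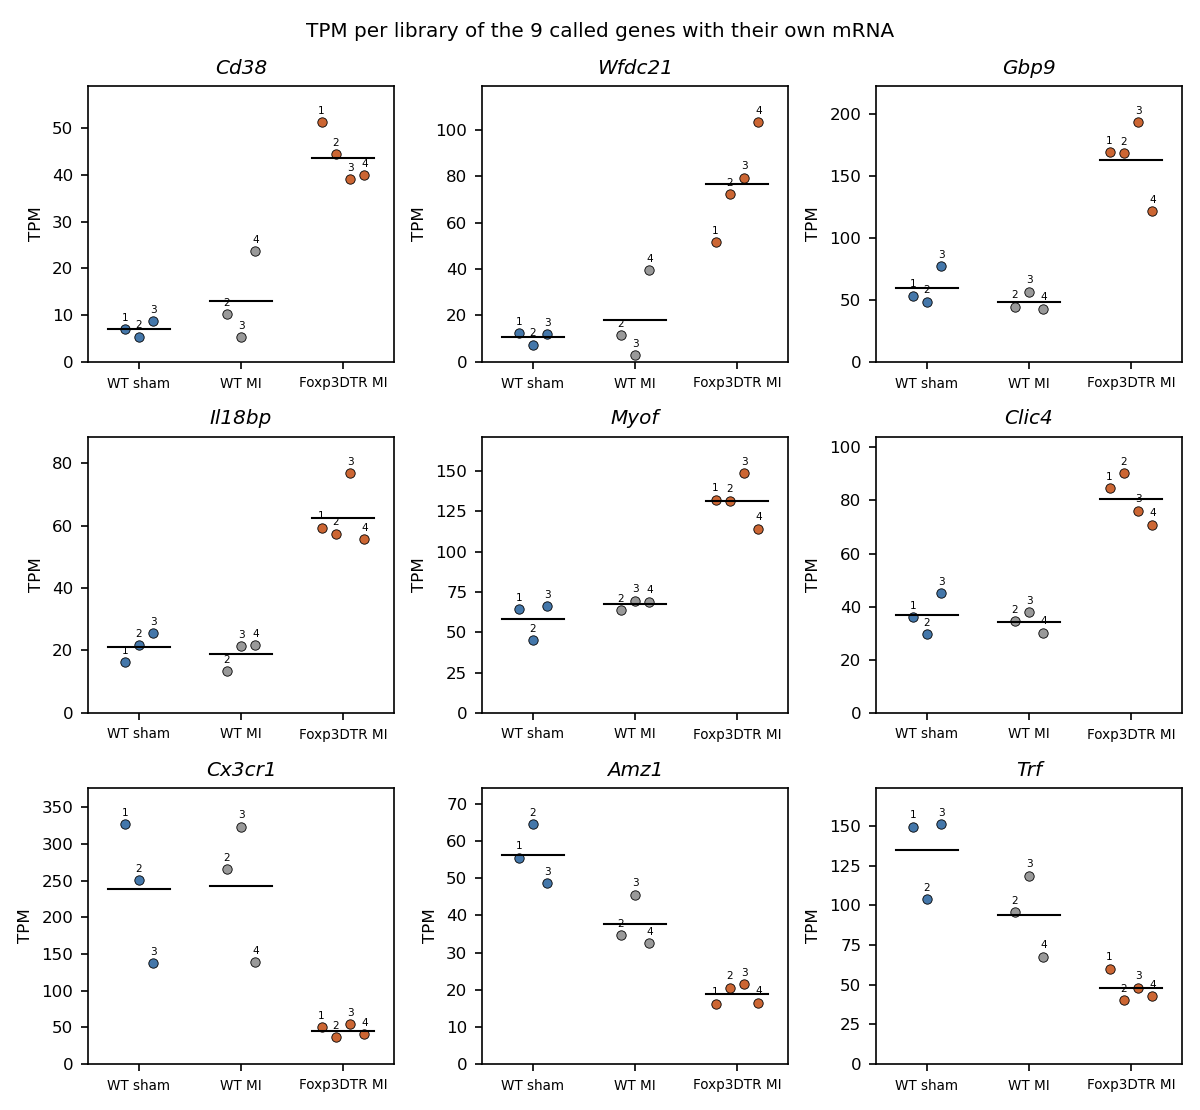
TPM as deposited (linear axes from 0) of the 9 genes past the threshold that have an mRNA of their own, 1 point per library with its replicate number and a line at the group mean. Foxp3DTR MI libraries lie apart from WT sham libraries in each panel, as for Cd38 with 39.1 TPM or more against 8.75 TPM or less.

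WT sham 3 set how many genes passed. Without it, 547 genes were called higher (4.38% of 12486) and 229 lower (1.83%), which is 776 in all (6.21%), and all 10 genes above were among these. Leaving out any other single library left between 1 and 6 genes. With all 7 libraries, 2447 genes had an unadjusted p under 0.05 (19.2%), of which 1370 were higher (10.8%) and 1077 lower (8.47%). In 1253 genes every Foxp3DTR MI library lay above every sham library (9.85%) while in 1074 it lay below (8.44%). These counts of separated groups are on scaled TPM, the scale of the test, and on TPM as deposited they were 1181 (9.28%) and 777 (6.11%). They serve below as the background for gene lists. List counts without WT sham 3 are description only, since this library was picked out from these same values as the sham library nearest to Foxp3DTR MI. The median log2 fold change of all genes was -0.01, with quartiles at -0.22 and 0.21.

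**Figure D2:**
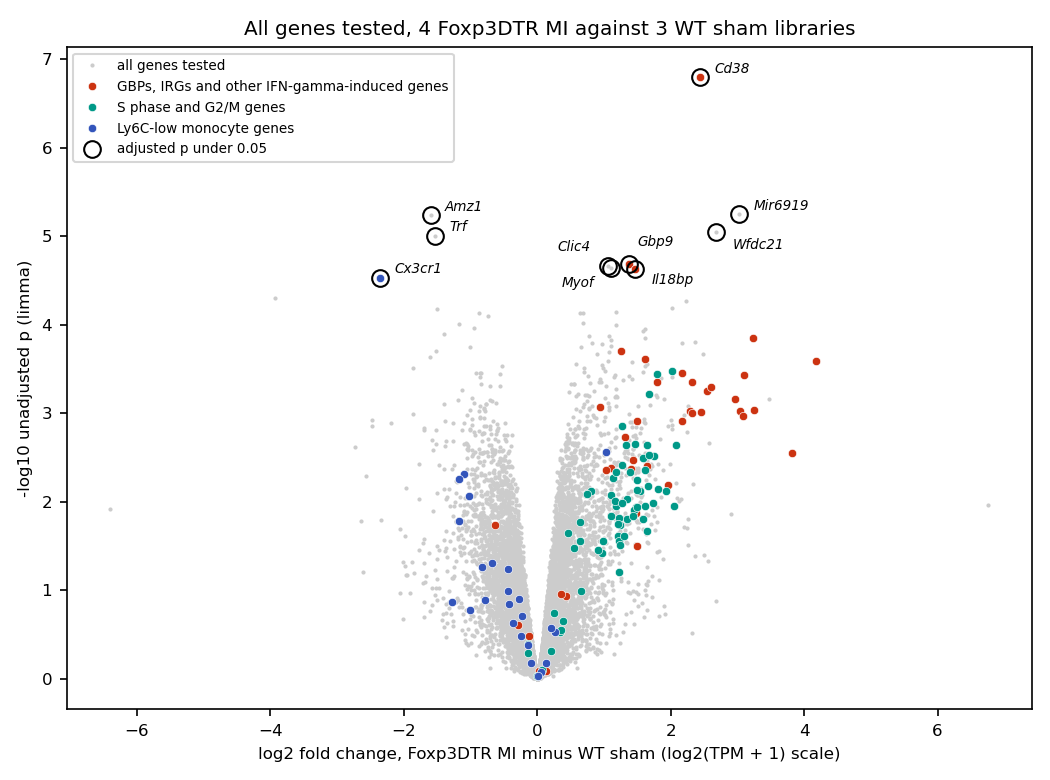
Log2 fold change (Foxp3DTR MI minus WT sham, log2(TPM + 1) scale) against -log10 of the unadjusted limma p for all 12722 genes tested, with 3 sets of gene lists in colour and rings around the 10 genes past the adjusted threshold. Most IFN-γ-induced and cell cycle genes lie to the right, and Cx3cr1 is the only ringed gene among the Ly6C-low monocyte genes.

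All 11 GBP genes had separated groups with the Foxp3DTR MI libraries on top, against 9.85% of all genes. Their median log2 fold change was 2.32 and their range 1.38 to 3.25, but only Gbp9 passed the adjusted threshold. Gbp4 had 6.32, 6.29 and 32.6 TPM in sham libraries and 118, 128, 159 and 80.4 TPM in Foxp3DTR MI libraries (log2 fold change 3.23 ± 0.49, adjusted p = 0.059, 0.00031 without WT sham 3). In Gbp5, whose protein promotes inflammasome assembly, the levels were 32.1, 26.8 and 110 TPM and 218, 265, 316 and 189 TPM (log2 fold change 2.32 ± 0.42, adjusted p = 0.069, 0.00042 without WT sham 3). WT sham 3 was well above the other sham libraries in both, so leaving it out widens the gap by construction. Without it the median of the list was 2.92 and all 11 genes passed, against 4.38% of all genes. GBP genes are near copies of each other, so single values are uncertain.

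The IRGs, which attack the vacuoles of intracellular parasites, gave similar values. Groups were separated upwards in 10 of 11 tested, the median log2 fold change was 1.50, and 0 of the 11 passed with all 7 libraries while 10 passed without WT sham 3 (median 1.88). Irgm1 had 179, 151 and 267 TPM in sham and 358, 388, 477 and 347 TPM in Foxp3DTR MI libraries (log2 fold change 0.94 ± 0.19, adjusted p = 0.082, 0.0098 without WT sham 3). Tgtp1, a near copy of Tgtp2, had 16.1, 22.1 and 80.7 TPM against 146, 168, 213 and 128 TPM. Gm4951 was listed at 0 in WT sham 1, had 1.07 and 8.08 TPM in WT sham 2 and 3, and 64.1, 78.8, 53.7 and 20.7 TPM in Foxp3DTR MI libraries. WT sham 3 was again the highest sham library in all 3 genes named.

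Of 18 other IFN-γ-induced chemokines and enzymes tested, 10 had separated groups upwards and 1 downwards, with a median log2 fold change of 1.48. Cd38 and Il18bp were the 2 past the threshold, and 10 passed without WT sham 3. Cxcl9, a chemokine that attracts T-cells through Cxcr3, had 7.13, 3.90 and 33.5 TPM in sham and 46.0, 54.6, 40.0 and 36.9 TPM in Foxp3DTR MI libraries, so WT sham 3 came close to the lowest Foxp3DTR MI library. Its log2 fold change was 1.96 ± 0.54 (SE) with an adjusted p of 0.13 in limma (0.0013 without WT sham 3), and WT MI libraries had 2.27, 3.59 and 1.99 TPM. Wars, the tryptophanyl-tRNA synthetase, had 63.7, 45.1 and 86.0 TPM against 146, 152, 199 and 139 TPM (log2 fold change 1.25 ± 0.20, adjusted p = 0.062, 0.0079 without WT sham 3). Cd274, which encodes the checkpoint ligand PD-L1, had 11.8, 17.1 and 25.9 TPM against 58.3, 69.7, 73.2 and 36.9 TPM (log2 fold change 1.61 ± 0.26, adjusted p = 0.068, 0.0098 without WT sham 3).

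Genes of antigen presentation are given by class. Of 20 genes of MHC class I and peptide loading tested, 15 had separated groups upwards and 0 downwards. Their log2 fold changes lay between 0.12 and 0.94 with a median of 0.64. Tap1, a subunit of the peptide transporter, had 131, 112 and 182 TPM in sham and 252, 232, 270 and 240 TPM in Foxp3DTR MI libraries (log2 fold change 0.78 ± 0.15, adjusted p = 0.083, 0.0098 without WT sham 3), and Psmb8, a subunit of the immunoproteasome, had 192, 176 and 270 TPM against 351, 386, 406 and 361 TPM (log2 fold change 0.78 ± 0.15, adjusted p = 0.078, 0.0098 without WT sham 3). No gene of this list passed with all 7 libraries, and 9 passed without WT sham 3. Of 11 MHC class II genes, 2 had separated groups upwards on scaled TPM and 0 on TPM as deposited, the median was 0.10 (0.038 without WT sham 3 and 0.19 without WT sham 1), and 0 passed with or without WT sham 3. Ciita, the master regulator of class II genes, had 38.4, 33.9 and 37.5 TPM against 64.5, 51.7, 61.2 and 36.8 TPM, and Cd74, the invariant chain, had 980, 600 and 787 TPM against 1230, 924, 1114 and 800 TPM.

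The IFN-γ receptor and its signalling genes differed member by member, with a median log2 fold change of 0.11 over 13 genes (0.047 without Foxp3DTR MI 4 and 0.40 without WT sham 3). Ifngr1, a receptor chain, had 929, 665 and 612 TPM in sham and 652, 561, 625 and 591 TPM in Foxp3DTR MI libraries, so the groups overlapped. Jak2 had 85.4, 83.9 and 101 TPM against 157, 162, 149 and 123 TPM (log2 fold change 0.64 ± 0.09, adjusted p = 0.052, 0.011 without WT sham 3). Socs1, the feedback inhibitor of this pathway, had 6.79, 16.3 and 26.9 TPM against 34.7, 53.8, 65.5 and 44.6 TPM (log2 fold change 1.61 ± 0.40, adjusted p = 0.11, 0.022 without WT sham 3). None of the 13 passed with all 7 libraries, and 4 were called higher without WT sham 3.

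Genes of the type I interferon response, many of which IFN-γ also induces, were less uniform. Groups were separated upwards in 8 of 30 and downwards in 0, and the median log2 fold change was 0.21. Zbp1, a sensor of nucleic acids, had 273, 209 and 374 TPM in sham and 582, 599, 672 and 573 TPM in Foxp3DTR MI libraries (log2 fold change 1.06 ± 0.18, adjusted p = 0.068, 0.0075 without WT sham 3). Ifit2 had 50.5, 21.1 and 50.2 TPM against 108, 103, 163 and 94.5 TPM (log2 fold change 1.51 ± 0.30, adjusted p = 0.082, 0.026 without WT sham 3). Of the list, 0 genes passed with all 7 libraries and 2 without WT sham 3.

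**Figure D3:**
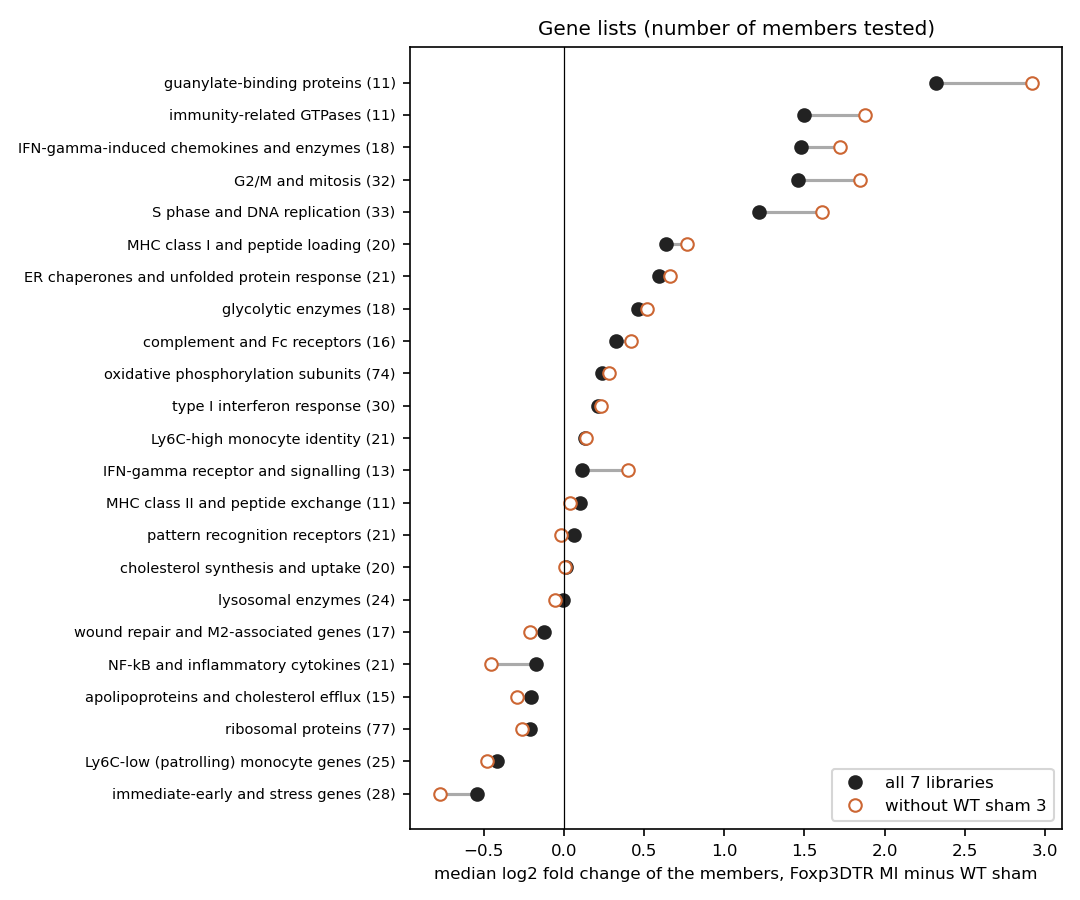
Median log2 fold change (Foxp3DTR MI minus WT sham) of the tested members of 23 gene lists, with all 7 libraries (filled) and without WT sham 3 (open). The GBPs head the order at 2.32 and 2.92, and the immediate-early and stress genes close it at -0.54 and -0.78.

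Genes that mark the monocyte subsets were not uniform. Of 25 genes of Ly6C-low patrolling monocytes, 4 had separated groups downwards and 1 upwards, against 8.44% and 9.85% of all genes, and the median log2 fold change was -0.42 (-0.27 without WT sham 1). Besides Cx3cr1, the angiotensin-converting enzyme gene Ace had 256, 194 and 100 TPM in sham and 99.5, 77.9, 87.3 and 69.2 TPM in Foxp3DTR MI libraries (log2 fold change -1.10 ± 0.29, adjusted p = 0.12, 0.0029 without WT sham 3). Adgre4, an adhesion receptor of patrolling monocytes, had 228, 164 and 79.1 TPM against 77.3, 68.9, 67.6 and 52.1 TPM (log2 fold change -1.18 ± 0.32, adjusted p = 0.12, 0.0024 without WT sham 3). In both, WT sham 3 lay just above the highest Foxp3DTR MI library. Nr4a1 had 350, 617 and 165 TPM against 164, 151, 174 and 124 TPM, so that WT sham 3 fell among the Foxp3DTR MI libraries, and its log2 fold change of -1.17 ± 0.39 (SE) with an adjusted p of 0.17 in limma did not pass. Nr4a1 was also on the list of immediate-early and stress genes, which tissue handling also induces, and was highest in WT sham 2. Without WT sham 3, a setting that keeps WT sham 2, the log2 fold change of Nr4a1 was -1.69 with an adjusted p of 0.0098 in limma, past the threshold. In the same setting, 5 genes of the Ly6C-low list were called lower and 1 higher. The latter was Bcl2a1d, whose groups were separated upwards. It had 13.4, 9.42 and 23.2 TPM in sham and 31.0, 39.1, 28.9 and 28.3 TPM in Foxp3DTR MI libraries (log2 fold change 1.02 ± 0.24, adjusted p = 0.10, 0.0093 without WT sham 3).

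Among 21 genes of Ly6C-high identity, 6 had separated groups upwards and 2 downwards, with a median log2 fold change of 0.13 (0.21 without WT sham 1). Ly6c2, the main gene of the Ly6C antigen used for sorting, had 1976, 1498 and 2772 TPM in sham and 3667, 3716, 4490 and 4757 TPM in Foxp3DTR MI libraries (log2 fold change 0.97 ± 0.28, adjusted p = 0.13, 0.064 without WT sham 3), and its near copy Ly6c1 had 332, 111 and 400 TPM against 611, 708, 736 and 782 TPM. Ccr2, the receptor that draws these monocytes from the marrow, had 1679, 906 and 1657 TPM against 1749, 1517, 1511 and 1353 TPM with overlapping groups, and the sign of its change turned without WT sham 2.

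Proliferation genes had a positive median difference. Of 32 genes of G2/M and mitosis, 13 had separated groups upwards and 0 downwards, and the median log2 fold change was 1.46. Top2a, a topoisomerase of dividing cells, had 21.7, 16.8 and 43.2 TPM in sham and 133, 166, 65.8 and 99.5 TPM in Foxp3DTR MI libraries (log2 fold change 2.02 ± 0.35, adjusted p = 0.068, 0.0093 without WT sham 3). Bub1, a kinase of the spindle checkpoint, had 2.63, 2.06 and 5.19 TPM against 14.9, 20.7, 8.63 and 13.4 TPM (log2 fold change 1.80 ± 0.31, adjusted p = 0.068, 0.011 without WT sham 3). The 33 genes of S phase had a median of 1.22 (0.76 without WT sham 2), but in only 6 were the groups separated. Mcm7, part of the replicative helicase, had 18.3, 10.3 and 31.1 TPM against 46.5, 54.9, 32.6 and 40.5 TPM, with WT sham 3 just below Foxp3DTR MI 3. None of these genes passed with all 7 libraries, while 22 G2/M and 21 S phase genes passed without WT sham 3. WT MI 2, at 79.6 TPM of Top2a, lay above Foxp3DTR MI 3.

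Genes for protein folding and energy supply differed by less. Of 21 genes of endoplasmic reticulum chaperones and the unfolded protein response, 16 had separated groups upwards and the median log2 fold change was 0.59. Sdf2l1, an endoplasmic reticulum chaperone cofactor, had 83.6, 70.2 and 88.3 TPM in sham and 131, 163, 142 and 144 TPM in Foxp3DTR MI libraries (log2 fold change 0.78 ± 0.12, adjusted p = 0.059, 0.017 without WT sham 3). Calr, which encodes calreticulin, had 417, 279 and 392 TPM against 552, 752, 690 and 604 TPM. Glycolytic genes had separated groups upwards in 10 of 18 (median 0.46, and 0.27 without WT sham 2), with Hk3, a hexokinase, at 29.6, 28.5 and 61.8 TPM against 72.3, 81.4, 90.2 and 74.4 TPM and WT sham 3 nearest to the Foxp3DTR MI level. Subunits of oxidative phosphorylation had separated groups upwards in 25 of 74 (median 0.23). Ribosomal protein genes had a median of -0.21 (-0.14 without WT sham 2), with separated groups downwards in 3 of 77 on scaled TPM and in 11 on TPM as deposited. No gene of these 4 lists passed with all 7 libraries, and without WT sham 3 there were 5, 3, 1 and 0 called higher, in the order given.

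Lipid and repair genes gave large values for single members. Apoe, which encodes the lipid carrier apolipoprotein E, had 1049, 971 and 353 TPM in sham and 159, 60.7, 168 and 187 TPM in Foxp3DTR MI libraries (log2 fold change -2.48 ± 0.52, adjusted p = 0.091, 0.013 without WT sham 3), with WT sham 3 the lowest sham library by far. Lpl, lipoprotein lipase, went the other way at 23.9, 18.3 and 21.1 TPM against 56.4, 63.0, 39.0 and 35.5 TPM (log2 fold change 1.07 ± 0.17, adjusted p = 0.063, 0.026 without WT sham 3). Each was the only gene with separated groups in its direction among 15 genes of apolipoproteins and cholesterol efflux. The 20 genes of cholesterol synthesis and uptake had a median of 0.01. Among 17 genes of wound repair, 3 had separated groups upwards and 5 downwards. Mmp14, a membrane-bound matrix protease, had 1.76, 0.930 and 2.12 TPM against 9.10, 6.96, 5.71 and 6.89 TPM (log2 fold change 1.62 ± 0.24, adjusted p = 0.059, 0.012 without WT sham 3). Timp2, an inhibitor of such proteases, had 42.2, 42.4 and 25 TPM against 16.3, 14.0, 15.6 and 17.4 TPM (log2 fold change -1.18 ± 0.23, adjusted p = 0.079, 0.0071 without WT sham 3). Pdgfb, a growth factor for fibroblasts and pericytes, had 4.47, 11.5 and 4.07 TPM against 1.41, 0.645, 0.719 and 1.3 TPM.

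Inflammatory genes outside the interferon lists showed no common direction. Of 21 genes of NF-kB and inflammatory cytokines, 3 had separated groups upwards and 3 downwards (median log2 fold change -0.18, -0.019 without WT sham 2 and -0.45 without WT sham 3). Il1b, which encodes interleukin-1 beta, had 52.1, 142 and 36.7 TPM in sham and 18.1, 29.3, 29.4 and 18.8 TPM in Foxp3DTR MI libraries (log2 fold change -1.50 ± 0.43, adjusted p = 0.14, 0.032 without WT sham 3), whereas Il1rn, the gene of the receptor antagonist, had 20.6, 15.2 and 20.8 TPM against 34.3, 28.4, 30.4 and 25.5 TPM (log2 fold change 0.57 ± 0.13, adjusted p = 0.1, 0.056 without WT sham 3). Tlr4, the receptor for bacterial lipopolysaccharide, had 60.0, 28.0 and 71.6 TPM against 124, 134, 132 and 90.0 TPM (log2 fold change 1.19 ± 0.26, adjusted p = 0.096, 0.021 without WT sham 3). In the other direction, Tlr2, a receptor for bacterial lipoproteins, had 130, 137 and 126 TPM against 90.7, 101, 106 and 111 TPM. Cfb, complement factor B, had 48.4, 14.6 and 33.6 TPM against 105, 105, 136 and 105 TPM (log2 fold change 1.86 ± 0.33, adjusted p = 0.069, 0.029 without WT sham 3). The 24 lysosomal enzymes had a median of -0.01, with 11 above 0 and 13 below, and the sign of the median turned with the library left out (-0.099 to 0.096). The cathepsins Ctsl and Ctsc were on the higher side at log2 fold changes of 0.76 ± 0.13 (SE) with an adjusted p of 0.068 in limma and 0.73 ± 0.19 (SE) with an adjusted p of 0.12 in limma, and passed without WT sham 3 (0.038 and 0.036). On the lower side, Lgmn, the gene of the protease legumain, had 180, 120 and 84.1 TPM against 84.3, 63.2, 68.9 and 67.5 TPM (log2 fold change -0.84 ± 0.24, adjusted p = 0.13, 0.015 without WT sham 3), with groups separated on scaled TPM and not on TPM as deposited. Ctsa, which encodes cathepsin A, had a log2 fold change of -0.49 ± 0.15 (SE) with an adjusted p of 0.15 in limma (0.033 without WT sham 3).

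Immediate-early and stress genes, which tissue handling also induces, had a median log2 fold change of -0.54 over 28 genes, with separated groups downwards in 4 and upwards in 1. WT sham 2 had the highest levels, and without it the median was -0.10. Rhob, a small GTPase, had 98.7, 147 and 91.2 TPM in sham and 63.0, 65.0, 63.5 and 65.5 TPM in Foxp3DTR MI libraries (log2 fold change -0.82 ± 0.19, adjusted p = 0.1, 0.026 without WT sham 3).

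The sort was set to exclude other cells. RNA of genes on the marker lists of such cells was measured in all libraries, and the sums cannot tell which cells it came from. Sums of 4 of 15 marker lists had separated groups, each with an exact two-sided permutation p of 0.0571, the smallest that 35 splits allow, and 0.214 after adjustment over the 15 (Benjamini-Hochberg). One of the 15 is the list of sort and monocyte markers. Its sum was 38423, 50332 and 35596 scaled TPM in WT sham 1 to 3 and 25508, 22814, 28218 and 36689 in Foxp3DTR MI 1 to 4, with overlapping groups. Of its 10 genes, 5 had log2 fold changes above 0 and 5 below. Stem and progenitor markers summed to 204, 149 and 286 scaled TPM in WT sham 1 to 3 and to 402, 437, 376 and 579 in Foxp3DTR MI 1 to 4. Within this list, Elane, a protease gene of granulocyte progenitors, had 24.3, 4.39 and 27.2 TPM against 48.9, 72.1, 35 and 77.1 TPM, and Ly6a, the gene of Sca-1 that IFN-γ also induces, had 40.0, 24 and 91.6 TPM against 151, 175, 207 and 177 TPM. Flt3, a cytokine receptor gene of progenitors that is also on the list of conventional dendritic cell markers, went the other way at 42.8, 59.5 and 20.8 TPM against 16.4, 5.41, 15.5 and 9.63 TPM (log2 fold change -1.77 ± 0.44, adjusted p = 0.11, 0.023 without WT sham 3). Of 13 progenitor markers tested, 8 had log2 fold changes above 0 and 5 below, with separated groups upwards in 3 and downwards in 2. Red pulp macrophage markers were lower in sum, at 451, 323 and 432 against 275, 186, 216 and 247 scaled TPM, and Spic, their defining transcription factor, had 23.9, 29.9 and 20.4 TPM against 16.5, 5.87, 5.88 and 7.73 TPM. Of 9 such markers tested, 7 had log2 fold changes below 0 and 2 above, with separated groups downwards in 4 and upwards in 1. Conventional and plasmacytoid dendritic cell markers were lower too, the former at 162, 235 and 139 against 117, 91.6, 98.1 and 112 scaled TPM. Cd209a, a lectin gene of dendritic cells and of some monocytes, had 15.6, 55.3 and 14.4 TPM against 7.55, 1.81, 3.01 and 3.33 TPM.

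T cell markers summed to 14.6, 35.8 and 206 scaled TPM in WT sham 1 to 3 and to 41.5, 162, 101 and 142 in Foxp3DTR MI 1 to 4, so WT sham 3 lay above them all. NK and cytotoxic cell markers summed to 81.3, 106 and 288 against 137, 247, 242 and 308 scaled TPM. In the 3 WT MI libraries the T cell sum was 11.1, 14.6 and 17.8 scaled TPM and the NK sum 68.2, 106 and 50.0 scaled TPM. WT sham 3 was thus high among sham libraries both for lymphocyte markers and for IFN-γ-induced genes, and the part of such cells in these results was not tested. Neutrophil markers summed to 2361, 2049 and 3627 against 2767, 3738, 3343 and 4937 scaled TPM with overlapping groups. S100a8, an abundant calcium-binding protein gene of neutrophils and Ly6C-high monocytes, had 60.7, 82.5 and 387 TPM against 525, 1044, 632 and 1082 TPM, while Csf3r, the receptor for the neutrophil growth factor G-CSF, had 217, 280 and 207 TPM against 169, 168, 177 and 120 TPM, in the opposite direction. Erythroid markers reached 349 scaled TPM in WT sham 3 and at most 74.9 in the other 6. In sorted bulk RNA, fewer cells of a type and less RNA per cell cannot be told apart.

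**Figure D4:**
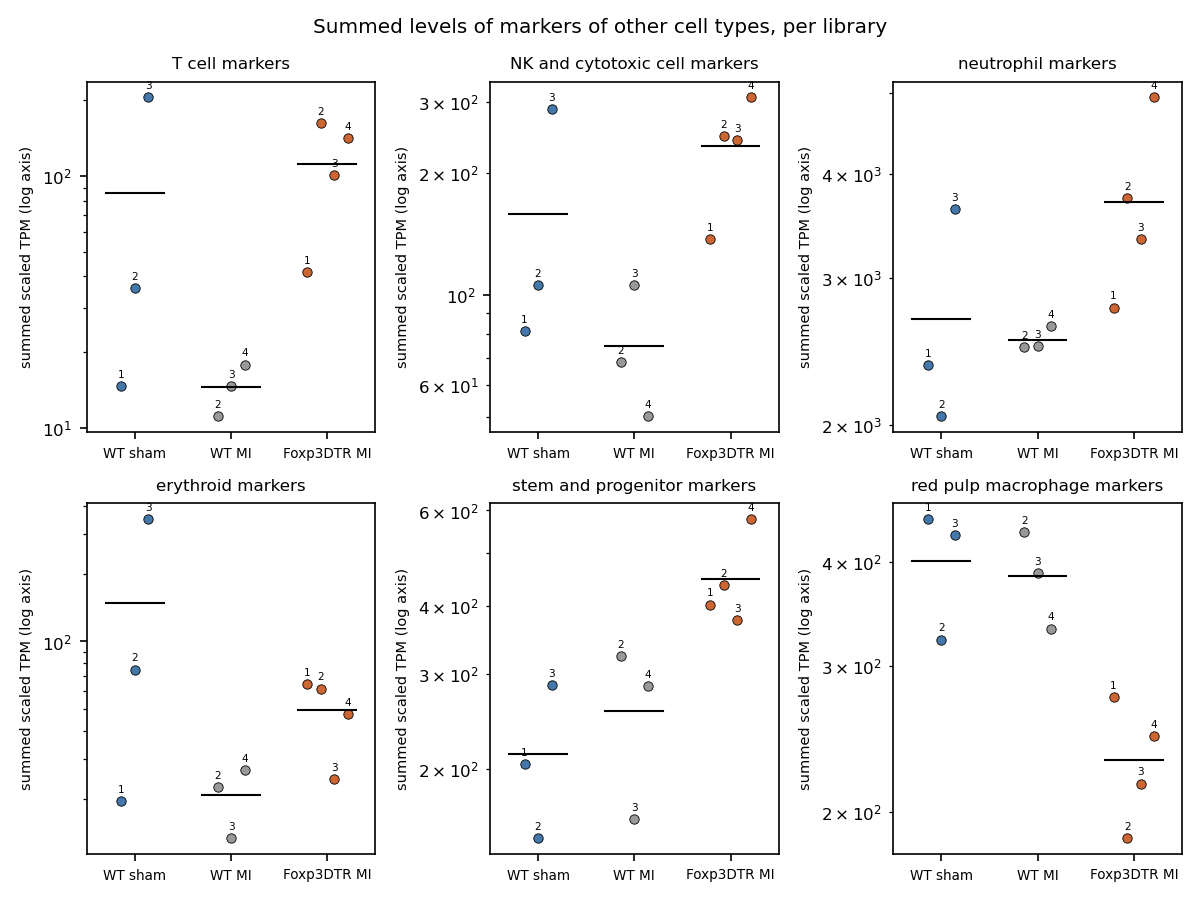
Summed scaled TPM (log axes) of 6 marker lists of other cell types, 1 point per library with its replicate number and a line at the group mean. WT sham 3 lies with the Foxp3DTR MI libraries for T cell, NK cell and neutrophil markers, and the groups are apart for progenitor and red pulp macrophage markers.

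Each gene called without WT sham 3 was put on a scale to place the libraries outside that fit. The scale ran from 0, the mean of WT sham 1 and 2, to 1, the mean of Foxp3DTR MI. A choice of genes for a wide gap places a left-out sham library above 0 by construction. WT sham 3 was also left out for lying nearest to Foxp3DTR MI, so its high position follows in part from that choice. The WT MI libraries were never in that fit and are given beside it as values, not as a like comparison. Over the 547 higher genes WT sham 3 had a median position of 0.67, with 74.8% of genes past 0.5. WT MI 2, 3 and 4 had medians of 0.46, 0.21 and 0.28. Over the 229 lower genes the medians were 0.65 for WT sham 3 and 0.25, 0.15 and 0.33 for WT MI 2 to 4.

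By list, the GBPs put WT sham 3 at 0.66 and WT MI 2 to 4 at -0.02, 0.29 and 0.11. The G2/M genes put WT sham 3 at 0.68 and WT MI 2 at 0.98, while WT MI 3 and 4 were at 0.03 and 0.32. High cell cycle genes thus occurred in a WT MI library without high GBPs, whereas WT sham 3 had both. For Gbp9, Il18bp and Clic4, each of the 3 WT MI libraries lay below the highest sham library in TPM as deposited.

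**Figure D5:**
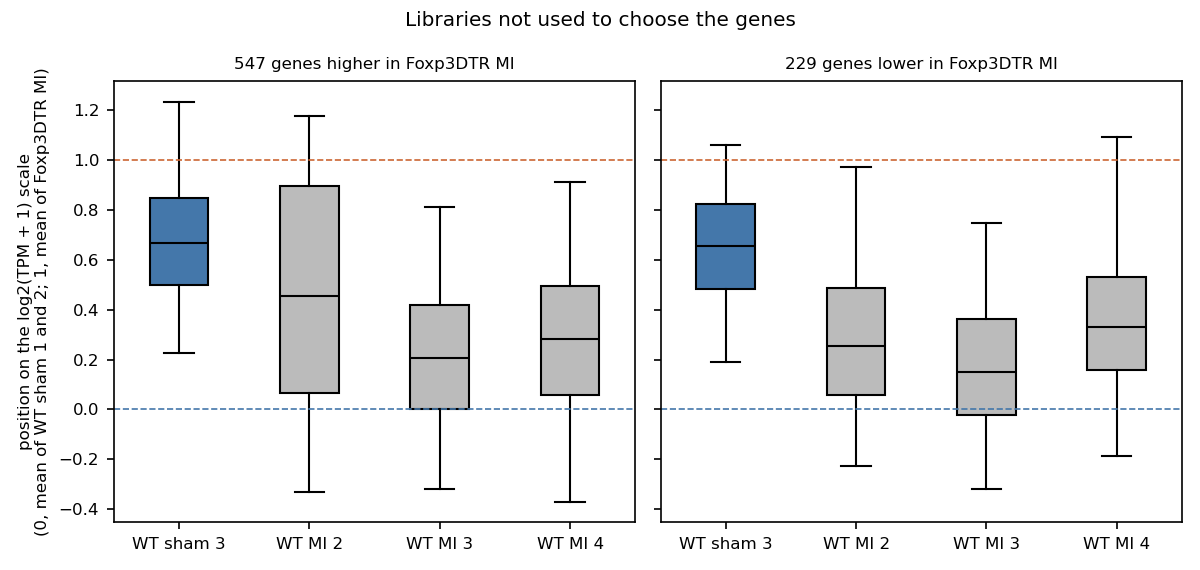
Position of the 4 left-out libraries on a scale from 0 (mean of WT sham 1 and 2) to 1 (mean of Foxp3DTR MI) for genes called higher (547) or lower (229) without WT sham 3. Boxes span the quartiles with a line at the median and whiskers run from the 5th to the 95th percentile. WT sham 3, left out as the sham library nearest to Foxp3DTR MI, lies at 0.67 and 0.65, above each WT MI library.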

How the data were processed

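Spleens were depleted of T and B cells, and cells positive for CD11b, F4/80 and CD115, high for Ly6C and negative for Ly6G were sorted, whose RNA was sequenced as single-end reads of 50 bases. For the processing, notes of the submitters list StringTie 1.3.0, STAR 2.5, cutadapt 1.1 and CASAVA 1.4. Coordinates are those of mm10. Per the study's methods, a quality check came first, adapters and low-quality ends were then cut off, and reads were aligned with STAR and assigned to genes with BEDTools. Neither the labels nor the methods name a strand setting for counting. For each library the authors deposited the coverage (a signal, mean depth over exons), FPKM and TPM of every gene, with no counts. Deposited TPM sums to 1000000 per library. Depth was inferred from coverage and FPKM, and no counting interval is given.

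Rows of 1 symbol were summed (24421 symbols). A gene was kept when at least 3 of the 7 libraries had 1 TPM or more. After division by a factor per library (median of ratios), limma 3.58.1 (R 4.3.3, variance trend, two-sided, Benjamini-Hochberg) tested log2(TPM + 1). Fold changes on this scale understate changes of low genes. Leaving out the scaling moved the overall median by 0.05. TPM printed for single genes is as deposited. The count test of the study's methods could not be used on these values. limma was tested on simulated data.

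Genes named are the sort markers and genes of interest to the study, called genes with separated groups at a mean of 5 TPM or more in 1 group, filled up to 6 per direction by lowest p, and up to 4 members of lowest p in each of 23 gene and 15 marker lists. Members and lists were chosen with earlier results of these data known. A few genes that the rule includes are not reported here. Promoter sequences are those of RefSeq. Alternatives changed the scaling (none or quantile), the unit (FPKM), the pseudocount (0.1 or 5), the filter (none or 5 TPM), the fit (all 10 libraries, no trend, robust, array weights, weights by group, replicate block), the minimum log2 fold change (1) or left out each library.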

Additional observations from a re-analysis of the deposited data

Results flagged for a closer look

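A gap test (Dixon) was applied to the 4 Foxp3DTR MI libraries for 112 values, and 4 were marked, where chance marks about 1 in 20. Foxp3DTR MI 4 had 23.03% of its TPM in its 10 most abundant RNAs, and the nearest other library of the group had 17.97%. The same library was lowest for H2-Q4, a class I gene, at 155.2 TPM (nearest 178.5 TPM) and for Csf3r at 120.0 TPM (nearest 168.0 TPM). Foxp3DTR MI 3 was highest for Cfb at 135.9 TPM (nearest 105.4 TPM). For these 3 genes all 4 Foxp3DTR MI libraries lay on 1 side of the sham libraries. Groups of 3 libraries were too small for the test.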

How the results depend on the processing

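The number of genes called depended on the setting more than their direction did. Against 10 genes with the settings used, the count was 17 without scaling, 51 with quantile normalization, 24 from FPKM, 29 with a pseudocount of 5, 1 without a filter, 16 with a filter at 5 TPM, 77 with all 10 libraries, 2 without a variance trend, 39 in a robust fit and 26 with array weights. With 1 library left out it ran from 1 to 776, the latter without WT sham 3. Deviations of same-numbered libraries from their group means correlated at 0.098, -0.0023 and -0.20. With so few libraries per group, these values cannot decide whether libraries were paired by replicate number, and shared batches were not tested. A fit with the replicate number as a block called 0 genes, with 1621 at an unadjusted p under 0.05 in limma. Each of the 10 genes kept its sign in every setting tried, Cd38 passed in 19 of 20 settings (adjusted p from 0.00036 to 0.17) and the others in 11 or 12. Why the counts differ was not tested.

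Of the list medians, IFN-γ receptor and signalling moved to 0.17 (no scaling), 0.047 (quantile), 0.042 (array weights) and 0.042 (replicate block), and wound repair moved to 0.14 (pseudocount of 0.1). B cell markers moved to -0.50 (FPKM) and -0.92 (filter at 5 TPM), conventional dendritic cell markers to -0.26 (pseudocount of 5) and -0.70 (filter), plasmacytoid ones to -0.27 (FPKM) and -0.29 (filter), red pulp macrophage markers to -0.55 (pseudocount of 5), progenitor markers to 1.06 (FPKM) and 1.33 (filter), and endothelial markers to 0.45 (pseudocount of 0.1) and 0.41 (filter).

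With 1 library left out, medians ran from 0.047 to 0.40 for IFN-γ receptor and signalling, 0.76 to 1.61 for S phase genes, -0.48 to -0.27 for Ly6C-low genes, 0.11 to 0.21 for Ly6C-high genes, 0.038 to 0.19 for MHC class II, -0.30 to -0.060 for apolipoproteins and cholesterol efflux, -0.31 to -0.14 for ribosomal proteins, 0.071 to 1.45 for T cell and 0.59 to 1.51 for neutrophil markers, -0.45 to -0.019 for NF-kB genes, 0.10 to 1.03 for NK markers, 0.13 to 0.41 for complement genes, -0.74 to -0.16 for conventional and -0.33 to -0.12 for plasmacytoid dendritic cell markers, 0.17 to 0.56 for endothelial markers, -1.21 to 0.64 for erythroid markers, 0.27 to 0.52 for glycolysis, -0.78 to -0.10 for immediate-early genes, -1.16 to -0.47 for red pulp macrophage markers and 0.29 to 0.96 for progenitor markers. Differences of marker sums turned sign for T cells (-9.20 to 86.3 scaled TPM), eosinophils (-1.79 to 0.66), erythroid cells (-162 to 2.45) and plasma cells (-80.5 to 94.1). The genes Adgre1 and Ccr2, both near no change, turned sign, the former to 0.028 without scaling (-0.11 to 0.058 with 1 library left out), and the latter to -0.050 with array weights (-0.16 to 0.25 with 1 library left out, lowest without WT sham 2). The eosinophil list had 1 gene tested, so its median was not compared.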
